A study of Homo sapiens with 8 samples.

Results

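Cystatins are small proteins that block papain-like cysteine proteases, among them the lysosomal cathepsins, by lodging in the protease's active site cleft. Type 1 cystatins (stefins) have no signal peptide and act inside the cell, whereas type 2 cystatins are secreted and limit cathepsins that reach the extracellular space. The type 2 genes for cystatins SN, SA and S (CST1, CST2 and CST4) are known from saliva and tears and lie side by side with CST3, the gene of the widely expressed cystatin C. CST1 is known to be raised in several carcinomas, breast tumours among them.

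Described here is the mRNA of 7 cystatin genes, CST1, CST2, CST3, CST4, CST6, CSTA and CSTB, out of 45341 gene identifiers listed in both rounds of the study. They were found by name, and CST1 and CST2 were chosen by their measured fall with light in these libraries, so that the light response of this pair is given as a description and was not tested. CSTA had no read in any library, and the other 6 passed the filter on low values (2 or more of the 8 libraries with an FPKM of 1 or higher), as did 12696 genes in all. FPKM is a level per length, the fragments counted per kilobase of a gene in every 1 M reads.

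Poly-A-selected RNA of the established human breast cancer line MDA-MB-231, a triple-negative one, was sequenced. Cells at passage 8 (round 1) had 10 µM 1-SO followed by 30 min of UV-A, 10 µM 1-SO in the dark, vehicle (1% DMSO) followed by UV-A, or vehicle in the dark. Cells at passage 32 to 34 (round 2) had 10 µM 1-S followed by UV-A, 10 µM 1-S in the dark, vehicle followed by UV-A, or vehicle in the dark, and every incubation lasted 24 h. 1-SO and 1-S are dibenzothienylmethyl triphenylphosphonium salts, a class of lipophilic cations that gather in mitochondria, and 1-SO carries an oxo group that 1-S lacks. UV-A came from 8 bulbs emitting between 325 and 375 nm, and a whole plate was irradiated while its partner stayed wrapped, so plate and light cannot be told apart. Each compound condition was 1 library and each vehicle condition n = 2 libraries, 1 a round. Compound, round and passage changed together and cannot be told apart. In bulk RNA, fewer cells expressing a gene and less RNA per cell cannot be told apart.

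The libraries held 15.8 to 22.6 M counted reads, so that a count of 0 allows up to 0.133 to 0.19 reads in every 1 M. The mesenchymal marker VIM was at 219 to 317 FPKM. CD44, also listed as high in this line, was at 28.3 to 197 FPKM. It was at 28.3 FPKM in 1-S UV-A and 32.3 in 1-S dark cells, against 62.3 in vehicle UV-A and 60.0 in vehicle dark cells of that round. Its log2 fold change from vehicle was -1.28 ± 0.23 (SE) with 1-S and UV-A and -0.87 ± 0.22 with 1-S in the dark. A link of this to the cystatin changes was not tested. CDH1, ESR1 and PGR, which this line is known to lack, were at or below 0.14 FPKM in all 8 libraries. Other markers listed as low were expressed, ERBB2 at 9.78 to 29.2 FPKM, EPCAM at 2.25 to 5.57 and GATA3 at 2.46 to 3.47. The leukocyte and fibroblast markers PTPRC and COL1A2 were at or below 0.116 FPKM. The collagen gene COL1A1 was at 6.39 FPKM in 1-S UV-A cells and 7.09 in 1-S dark cells, against 1.49 in vehicle UV-A and 1.45 in vehicle dark cells of the same round. It passed the test in both lights, with a log2 fold change of 2.34 ± 0.23 (SE) in the dark and an edgeR adjusted p of 1.5e-08. The endothelial marker PECAM1, listed in round 2 only, was at or below 0.411 FPKM. Summed over PTPRC, COL1A1 and COL1A2, the level was 6.46 FPKM in 1-S UV-A and 7.12 in 1-S dark cells, against 1.58 and 1.55 in vehicle UV-A and vehicle dark cells, and the part of this in the cystatin changes with 1-S was not tested.

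Because CST1, CST2 and CST4 are near copies, their sequences bear on what a read can tell about each gene. In GRCh38 the 4 expressed type 2 genes of the cluster lie on the minus strand of chromosome 20. CST3 is at chr20:23626706-23638473, CST4 at chr20:23685640-23689040, CST1 at chr20:23747553-23751268 and CST2 at chr20:23823769-23826731. The coding sequences of CST1, CST2 and CST4 have 426 bases each and differ from one another at 50 positions. Identity was 91.3% between CST1 and CST2, 92.7% between CST1 and CST4 and 92.5% between CST2 and CST4, and 69.8 to 72.8% between CST3 and each of them. The stretch with the most differences, coding bases 3 to 152 of the GENCODE 29 transcripts (GRCh38), holds 27 of the 50, and reads from it can tell the 3 genes apart. Further on, coding bases 274 to 360 are the same in all 3, a run of 87 bases in which a short read has no single origin. Of the stretches of 50 bases in each transcript, 27.3% in CST1, 30.2% in CST4 and 8.30% in CST2 also occur in a transcript of another of these cystatin genes, and none in CST3. The labels and file headers used here do not say how the authors' counting treated such reads. The split of reads between CST1 and CST4 is therefore uncertain, while CST3 is free of this limit.

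CST1, encoding cystatin SN, was among the more abundant mRNAs of these cells. In round 1 its level was 97.9 FPKM with 1-SO and UV-A, 279 with 1-SO in the dark, 152 in vehicle UV-A cells and 246 in vehicle dark cells. In round 2 it was 22.8 FPKM with 1-S and UV-A, 21.2 with 1-S in the dark, 45.8 in vehicle UV-A cells and 76.0 in vehicle dark cells. The irradiated 1-SO library was the lowest of its round, and both 1-S libraries lay below both vehicle libraries of theirs. By FPKM, CST1 ranked 131 of the 12696 genes in the 1-SO dark library, against 157 in vehicle dark cells of that round, and 2233 in the 1-S dark library, against 457 in vehicle dark cells of that round.

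CST4, encoding cystatin S, ran with CST1. It was at 67.0 FPKM with 1-SO and UV-A, 196 with 1-SO in the dark, 118 in vehicle UV-A and 180 in vehicle dark cells of round 1. In round 2 it was at 23.2 FPKM with 1-S and UV-A, 21.4 with 1-S in the dark, 48.5 in vehicle UV-A and 71.6 in vehicle dark cells. The order of the 4 libraries was that of CST1 in both rounds. The ratio of CST1 to CST4, each as FPKM, was 1.46 with 1-SO and UV-A, 1.42 with 1-SO in the dark, 1.28 in vehicle UV-A and 1.37 in vehicle dark cells. In round 2 the same ratio was 0.983, 0.989, 0.943 and 1.06 in 1-S UV-A, 1-S dark, vehicle UV-A and vehicle dark cells. The ratio thus moved little within a round while the levels changed several-fold. The gene length the authors used for CST1 differs between the rounds (760 and 872 bases), so the step of this ratio between rounds was not compared.

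CST2, encoding cystatin SA, was far less abundant. In round 1 it was at 6.50 FPKM (108 reads) with 1-SO and UV-A, 15.0 (200 reads) with 1-SO in the dark, 7.02 (83 reads) in vehicle UV-A and 15.4 (217 reads) in vehicle dark cells. In round 2 it was at 2.52 FPKM (36 reads) with 1-S and UV-A, 2.82 (46 reads) with 1-S in the dark, 3.63 (59 reads) in vehicle UV-A and 7.82 (132 reads) in vehicle dark cells. The irradiated libraries of round 1 lay at a like level with and without 1-SO, and both were below the dark ones. At these counts the exact binomial 95% interval, which covers counting error only, ran from 1.77 to 3.49 FPKM in 1-S UV-A and from 2.06 to 3.76 in 1-S dark cells, against 2.76 to 4.68 in vehicle UV-A and 6.54 to 9.27 in vehicle dark cells.

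By FPKM, CST3 was the most abundant member in 7 of the 8 libraries, the exception being 1-SO in the dark, where CST1 was higher. That ranking depends on the gene length used. The authors' length for CST3 was 2095 bases in round 1 and 3695 in round 2, against 873 for the transcript compared above. In reads, CST3 was ahead with 1-SO in the dark too, with 9810 against 3769 for CST1. CST3 was at 171 FPKM with 1-SO and UV-A, 263 with 1-SO in the dark, 208 in vehicle UV-A and 256 in vehicle dark cells of round 1. In round 2 it was at 76.2 FPKM with 1-S and UV-A, 75.6 with 1-S in the dark, 103 in vehicle UV-A and 115 in vehicle dark cells. The libraries stood in the same order as for CST1, over a smaller span.

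CST6 (chr11:66011841-66013505, plus strand) encodes cystatin E/M, an inhibitor of legumain and cathepsins L and V that is often silenced in breast tumours. It was at 1.84 FPKM with 1-SO and UV-A, 3.04 with 1-SO in the dark, 3.50 in vehicle UV-A and 2.59 in vehicle dark cells of round 1. In round 2 it was at 3.11 FPKM with 1-S and UV-A, 3.20 with 1-S in the dark, 4.12 in vehicle UV-A and 4.55 in vehicle dark cells. These levels rest on 31 to 78 reads a library, and both 1-S libraries were below both vehicle libraries of their round.

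CSTB (chr21:43772512-43776445, minus strand) encodes stefin B, an inhibitor of cathepsins inside the cell. It was at 63.2 FPKM with 1-SO and UV-A, 58.3 with 1-SO in the dark, 54.4 in vehicle UV-A and 61.8 in vehicle dark cells of round 1. In round 2 it was at 39.2 FPKM with 1-S and UV-A, 38.1 with 1-S in the dark, 37.8 in vehicle UV-A and 33.1 in vehicle dark cells. Within a round, the libraries spanned far less than those of any secreted member. CSTA (chr3:122325244-122341972, plus strand), the gene of stefin A, which is best known from skin, had 0 reads in all 8 libraries.

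**Figure D1:**
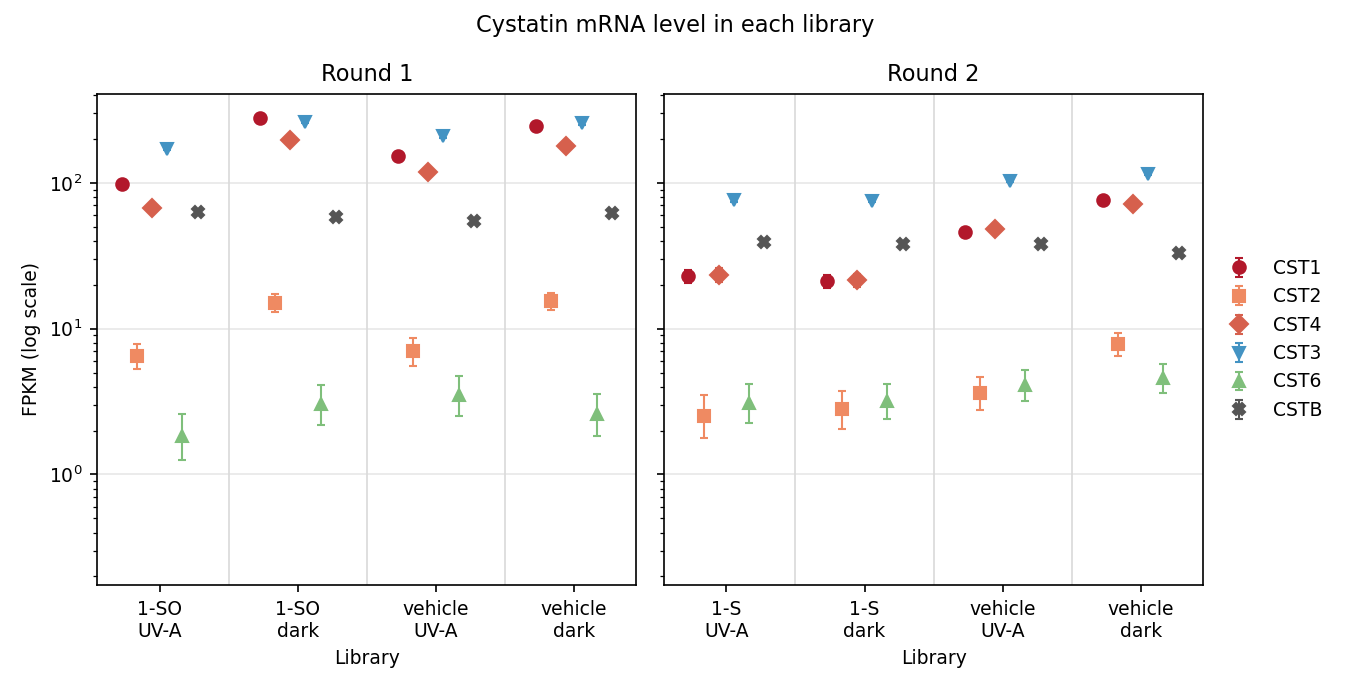
FPKM of 6 cystatin genes on a log axis in each of the 8 libraries, with 1 panel per round; points are single libraries and bars are exact binomial 95% intervals that cover counting error only. CST1, CST2 and CST4 are low in the irradiated 1-SO library and in both 1-S libraries. CST2 is at a like level in vehicle UV-A cells of round 1 (7.02 FPKM, against 6.50 with 1-SO and UV-A). CSTB stays between 54.4 and 63.2 FPKM in round 1 and between 33.1 and 39.2 in round 2. CSTA, at 0, is not drawn.

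The makeup of the group shifted with these changes. CST1, CST2 and CST4 together made up 42.1% of the summed FPKM of the 7 members with 1-SO and UV-A and 60.1% with 1-SO in the dark, against 51.0% in vehicle UV-A and 58.0% in vehicle dark cells. In round 2 they made up 29.1% with 1-S and UV-A and 27.9% with 1-S in the dark, against 40.3% in vehicle UV-A and 50.4% in vehicle dark cells. The size of these shares depends on the gene length used for each member, which was the same for all libraries of a round. Within each round, the share was lowest where CST1 and CST4 were lowest.

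In cells kept dark with 1-S, all 4 expressed cystatin mRNAs of the chromosome 20 cluster were lower than in vehicle cells. Compared with vehicle cells in the dark, CST1 fell by 1.90 ± 0.20 (SE) on the log2 scale, with an edgeR adjusted p of 3.9e-08. CST4 fell by 1.82 ± 0.20 (edgeR adjusted p = 1.4e-07). CST2 fell by 1.54 ± 0.41 (edgeR adjusted p = 0.0058) and CST3 by 0.70 ± 0.21 (edgeR adjusted p = 0.0117). In all, 4 of the 6 members tested passed as lower and none as higher, where 15.0% of all genes tested passed as lower. CST6 had a log2 fold change of -0.44 (95% interval -1.43 to 0.55) and CSTB one of 0.04 (-0.34 to 0.43), and neither passed. The median over the 6 members was -1.12, against 0.00 for all genes tested. The call of CST2 was lost with DESeq2 (adjusted p = 0.119). In the authors' deposited table for this pair of libraries, which has no replicates, CST1 was at -1.97 (adjusted p = 0.00117) and CST4 at -1.87 (adjusted p = 0.00272), while CST2 had an adjusted p of 0.0699, and 0.421% of the 58676 genes of that table passed as lower. CST3 was at -0.73 there and did not pass.

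These p-values rest on how much the light response of vehicle cells differed between the rounds, which was the only replication, and the single compound library was assumed to vary like a vehicle library. In a fit without a term for round, no call on any member remained, here or in the comparisons that follow. Nothing in the labels says that libraries came from separate cultures, so p-values measure the spread between these samples, which may be technical. The libraries by whose light falls CST1 and CST2 were picked also enter the compound comparisons. For these 2 genes, tests against vehicle and between the compounds are therefore not wholly independent of that choice. The same holds for counts of members that include them.

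With UV-A, cells given 1-S still had less CST1 and CST4 mRNA than irradiated vehicle cells. CST4 fell by 1.09 ± 0.20 on the log2 scale (edgeR adjusted p = 0.00016) and CST1 by 1.05 ± 0.19 (edgeR adjusted p = 0.00017). These were the 2 members of 6 that passed, both lower, where 13.7% of all genes tested passed as lower. CST3 had a log2 fold change of -0.45 ± 0.21 (edgeR adjusted p = 0.105) and CST2 one of -0.55 ± 0.44 (edgeR adjusted p = 0.37). The authors' deposited table for this pair called neither gene, with an adjusted p of 0.188 for CST4 and 0.244 for CST1. In that deposited list of the authors 0.532% of genes passed as lower.

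With 1-SO in the dark, no change of a cystatin from vehicle passed. The log2 fold change against vehicle dark cells was 0.17 for CST1 (95% interval -0.19 to 0.53), 0.13 for CST4 (-0.24 to 0.51), 0.08 for CST3 (-0.34 to 0.49) and -0.03 for CST2 (-0.76 to 0.69). It was 0.07 for CST6 (-0.99 to 1.13) and 0.01 for CSTB (-0.37 to 0.38). These intervals leave room for changes, so they do not show that the levels were equal. None of the 6 members passed the edgeR test, nor did any of the 12696 genes (0%). limma called 2 genes, DESeq2 0, and 26 had p under 0.05 in edgeR before adjustment.

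With 1-SO and UV-A together, the CST1 and CST4 mRNAs were lower than in irradiated vehicle cells. CST4 fell by 0.93 ± 0.19 on the log2 scale (edgeR adjusted p = 0.0015) and CST1 by 0.72 ± 0.18 (edgeR adjusted p = 0.0094). These were 2 of 6 members, both lower, where 7.05% of all genes tested passed as lower. CST3 had a log2 fold change of -0.42 (95% interval -0.85 to 0.00), CST6 one of -0.87 (-1.96 to 0.22), CST2 one of -0.22 (± 0.38, SE) and CSTB one of 0.02 (-0.37 to 0.40), and none of these 4 passed. The call of CST1 was lost with DESeq2 (adjusted p = 0.094). The authors' deposited table of 1-SO UV-A against vehicle UV-A called neither, with -0.90 for CST4 and -0.71 for CST1 at an adjusted p of 1 each, where 0.155% of its genes passed as lower. Against vehicle dark cells the authors' deposited table gave -1.59 for CST4 (adjusted p = 0.0259) and -1.50 for CST1 (adjusted p = 0.0464), where 1.09% of its genes passed as lower, a comparison in which compound and light changed together.

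**Figure D2:**
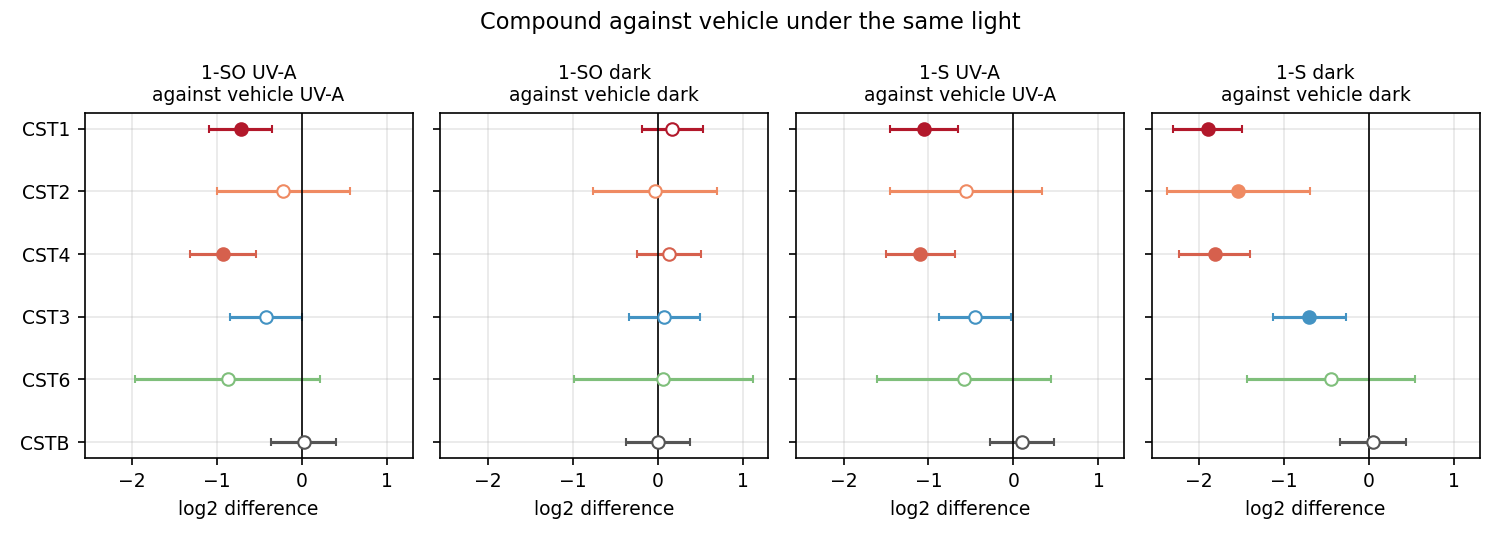
Log2 differences of 6 cystatin genes (x axis) between compound and vehicle under the same light, with 95% intervals; filled points passed the edgeR test (adjusted p under 0.05) and open points did not. The widest gap is that of CST1 and CST4 with 1-S in the dark, at -1.90 and -1.82, and with 1-SO in the dark every interval crosses 0.

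UV-A by itself was followed by lower CST1, CST2 and CST4 levels in vehicle cells of both rounds. CST1 was 38.4% lower by FPKM in vehicle UV-A than in vehicle dark cells of round 1 and 39.8% lower in round 2. CST2 was 54.6% lower in round 1 and 53.6% lower in round 2. CST4 was 34.3% and 32.2% lower, and CST3 18.6% and 10.3% lower. For CST1 and CST2 the rule used these falls, so nothing is read from how alike they are between rounds. CST4 was not picked for its fall. Reads that match both CST4 and CST1 may enter its count, so its light tests, here and below, are not wholly independent of the pick. The fitted log2 fold change was -0.61 ± 0.14 for CST4 (edgeR adjusted p = 0.39), and for CST3 it was -0.25 ± 0.15 (edgeR adjusted p = 1). Neither passed, and none of the 12696 genes did with edgeR (0%), while limma called 7 genes, DESeq2 0, and 347 had p under 0.05 in edgeR before adjustment. Across the 12696 genes, the light log2 ratios of vehicle cells in round 1 correlated at -0.093 with those in round 2.

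In cells holding 1-SO, the irradiated library had less of CST1, CST2, CST3 and CST4 than the dark one. CST1 was 64.9% lower by FPKM in the 1-SO UV-A than in the 1-SO dark library, CST4 65.9%, CST2 56.8% and CST3 35.2%. CST4 had a log2 fold change of -1.68 ± 0.20 (edgeR adjusted p = 1.9e-06) and CST3 one of -0.75 ± 0.22 (edgeR adjusted p = 0.0198), where 9.21% of all genes tested passed as lower. The call of CST3 was lost with limma on log2(FPKM + 1) (adjusted p = 0.053). The fitted values of CST1 and CST2 were -1.64 and -1.33, given without a test.

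The light response of CST4 in 1-SO cells minus that in vehicle cells was -1.07 ± 0.24 on the log2 scale, a deeper fall with 1-SO, with an edgeR adjusted p of 0.0089, where 2.90% of all genes tested passed in that direction. This call was lost with DESeq2 (adjusted p = 0.122) and when each round's own vehicle response was used (adjusted p = 0.066). For CST3 the same difference was -0.50 ± 0.27 (edgeR adjusted p = 0.35), and for CST1 and CST2 it was -0.90 and -0.19, not tested.

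In cells holding 1-S, CST1, CST3 and CST4 were not lower in the irradiated library. The fitted log2 fold change of UV-A over dark was 0.10 for CST1 and -0.17 for CST2, given without a test. That of CST4 was 0.11 (95% interval -0.33 to 0.55) and that of CST3 0.00 (-0.44 to 0.45). No member and none of the 12696 genes passed edgeR here (0%), nor DESeq2 or limma (0 genes), and 307 had p under 0.05 in edgeR before adjustment. The difference of the CST4 light response in 1-S cells from that in vehicle cells was 0.72 ± 0.26 with an edgeR adjusted p of 1. For the difference from vehicle cells edgeR called none of the 12696 genes (0%), DESeq2 0 and limma 6, and 285 had p under 0.05 in edgeR before adjustment. Both 1-S libraries lay below both vehicle libraries of their round for CST1, CST2, CST3 and CST4.

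Across the 4 matched pairs of irradiated and dark libraries, CST2 was lower with light in 4 of 4 pairs. CST1, CST3 and CST4 were lower in 3 of 4, all but the 1-S pair. CST6 was lower in 3 of 4, all but the round 1 vehicle pair, and CSTB in 1 of 4. Of all genes tested, 40.2% were lower with light in vehicle cells of round 1 and 54.0% in those of round 2. The share was 39.9% in 1-SO cells and 47.2% in 1-S cells. CST1 and CST2 were picked for such falls, so their counts are a description only. In the fit over the 4 pairs the log2 fold change was -0.71 ± 0.25 for CST4 and -0.31 ± 0.14 for CST3, both with an edgeR adjusted p of 0.76. None of the 12696 genes passed with edgeR (0%), nor with limma or DESeq2 (0 genes), and 581 had p under 0.05 in edgeR before adjustment. Without the filter on low values CST4 passed (edgeR adjusted p = 0.000135).

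The compounds were then set side by side at the same dose and time, as the difference of their changes from vehicle. This pair of compounds was compared in 2 lights over 6 members, with p-values adjusted over all genes tested. In the dark, the change of CST1 was higher with 1-SO than with 1-S by 2.07 ± 0.24 on the log2 scale (edgeR adjusted p = 8.1e-07). For CST4 this difference was 1.95 ± 0.25 (edgeR adjusted p = 3.0e-06), for CST2 1.51 ± 0.51 (edgeR adjusted p = 0.0416) and for CST3 0.78 ± 0.27 (edgeR adjusted p = 0.044). Thus 4 of 6 members passed as higher with the compound that carries the oxo group, where 8.40% of all genes tested passed as higher. The call of CST3 was lost with DESeq2 (adjusted p = 0.094), limma (0.072), median-of-ratios scaling (0.0521) and each round's own vehicle (0.184), and that of CST2 with each round's own vehicle (0.0714). DESeq2 gave no adjusted p for CST2.

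Under UV-A no difference between the compounds passed. The change of CST1 from vehicle differed by 0.33 between 1-SO and 1-S (95% interval -0.17 to 0.83), that of CST2 by 0.34 (-0.75 to 1.42), that of CST4 by 0.16 (-0.35 to 0.68) and that of CST3 by 0.03 (-0.52 to 0.57). These intervals leave room for differences of up to 0.83, 1.42, 0.68 and 0.57, so they do not show that the compounds acted alike. Of all genes tested, 1.28% passed as higher and 2.27% as lower with 1-SO.

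The neighbours of the cystatin genes were looked at next. Within 500 kb of the cluster the files list 33 genes, of which 8 passed the filter, and 4 of these are not cystatins. The 1-S dark library had less of all 4 expressed cystatin mRNAs of the cluster, while 2 genes to the side of CST3 rose against vehicle dark cells. These were NAPB, whose product works in vesicle fusion, at 1.00 ± 0.23 (edgeR adjusted p = 0.00172), and the zinc finger gene GZF1, at 0.66 ± 0.21 (edgeR adjusted p = 0.0179). Over all genes tested, 15.9% passed as higher in this comparison. NXT1, a factor of RNA export, had a log2 fold change of -0.51 ± 0.24 (edgeR adjusted p = 0.115). The long non-coding RNA RP11-218C14.8, which begins inside the span of CST3 on the same strand, had -1.18 ± 0.86 on 109 reads in all. Whether its reads are separate from those of CST3 was not tested. With 1-SO and UV-A none of these 4 neighbours passed, NAPB being at 0.41 ± 0.24 and GZF1 at 0.22 ± 0.21. Of the 14 protein-coding genes within the window, 7 had at most 3 reads over the 8 libraries, among them the cystatin genes CST5, CST8, CST9, CST9L, CST11 and CSTL1.

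**Figure D3:**
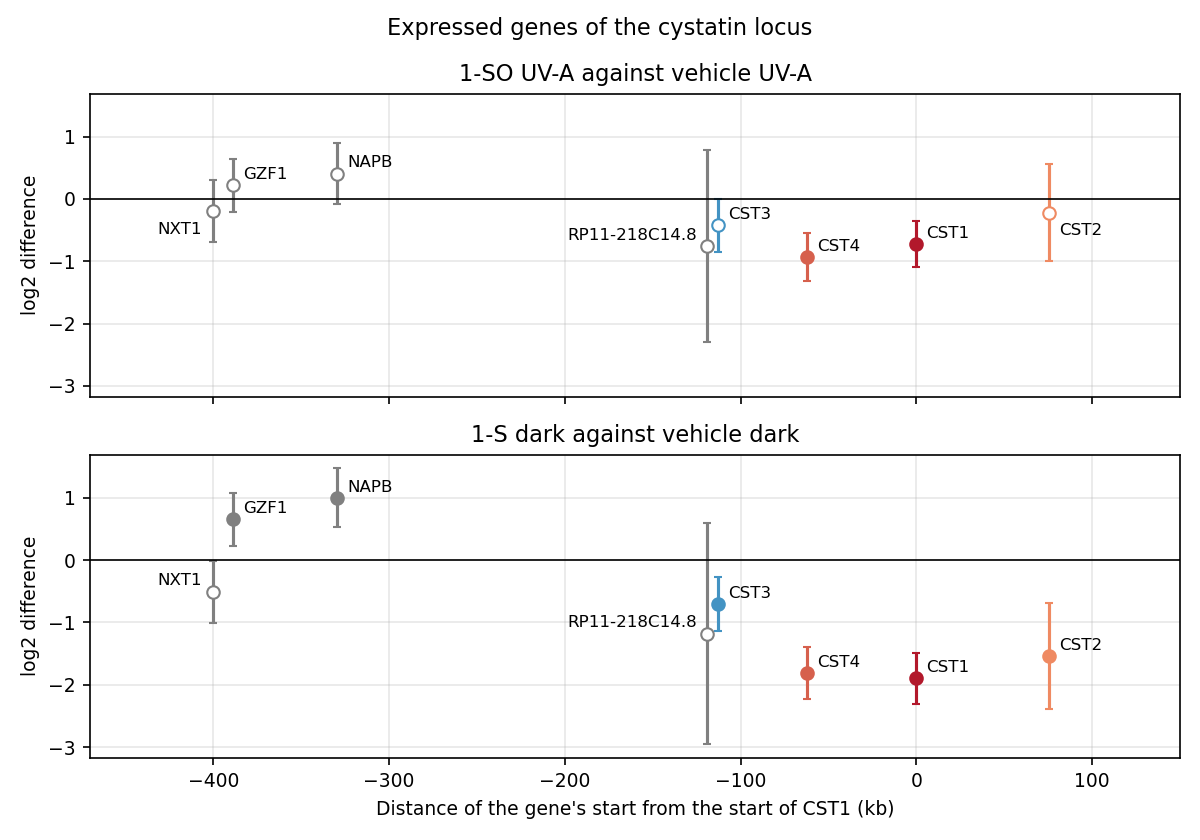
Log2 differences with 95% intervals (y axis) of the 8 tested genes within 500 kb of the cystatin cluster, against the distance in kb of each gene's start from that of CST1, for 1-SO with UV-A (top) and 1-S in the dark (bottom), each against vehicle under the same light; filled points passed the edgeR test. With 1-S in the dark the cystatin genes lie below 0 and NAPB and GZF1 above it.

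Beyond the 7 members, the cystatin fold was sparsely expressed. Of 11 further genes of the fold, 1 passed the filter, CST7, the gene of the leukocyte cystatin F. It was at 1.65 FPKM with 1-SO and UV-A, 0.968 with 1-SO in the dark, 0.408 in vehicle UV-A and 0.687 in vehicle dark cells, and at 3.50, 4.43, 4.15 and 3.62 in 1-S UV-A, 1-S dark, vehicle UV-A and vehicle dark cells. It passed no test, with a log2 fold change of 1.46 ± 0.63 for 1-SO with UV-A (edgeR adjusted p = 0.146).

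The cysteine proteases that cystatins inhibit did not move in 1 direction. Of 12 on the list 10 were tested, and with 1-S in the dark 3 passed as higher and 3 as lower, with a median log2 fold change of -0.27, against 0.00 over all genes tested. The background was 15.9% for higher and 15.0% for lower genes. CTSL (cathepsin L, a main lysosomal endopeptidase) was at 50.3 FPKM with 1-S in the dark, against 29.9 in vehicle dark cells, a log2 fold change of 0.76 ± 0.18 (edgeR adjusted p = 0.00172). CTSK (cathepsin K, a collagen-degrading protease best known from osteoclasts) was at 3.40 FPKM, against 1.36 (log2 fold change 1.33 ± 0.41, edgeR adjusted p = 0.0157), and CTSV (cathepsin V, the close relative of cathepsin L) rose by 1.05 ± 0.38 (edgeR adjusted p = 0.0349). The genes that fell were CTSC (the aminopeptidase cathepsin C) at -0.89 ± 0.20, CTSF (cathepsin F) at -0.72 ± 0.23 and CTSB (cathepsin B, a major lysosomal protease) at -0.54 ± 0.19, with edgeR adjusted p of 0.00151, 0.0171 and 0.0278.

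The same list under 1-SO with UV-A had 2 genes higher and 1 lower, with a median of -0.01. CTSL was at 88.5 FPKM with 1-SO and UV-A, against 52.3 in irradiated vehicle cells (log2 fold change 0.73 ± 0.17, edgeR adjusted p = 0.0062). CTSK was at 4.20 FPKM, against 1.68 (1.30 ± 0.42, edgeR adjusted p = 0.0411), and CTSC at 14.2 FPKM, against 19.2 (-0.69 ± 0.20, edgeR adjusted p = 0.0242). The background was 4.47% for higher and 7.05% for lower genes. With 1-S under UV-A, 2 of the 10 passed as higher (CTSL and CTSK) and 2 as lower (CTSC and CTSO). Of all genes tested, 13.8% passed as higher and 13.7% as lower there. So CTSL and CTSK were higher, and CTSC lower, in each of the 3 conditions in which CST1 and CST4 were lower than vehicle. For UV-A in vehicle cells, where CST1 and CST4 levels were also lower, CTSL was at 0.05 ± 0.14 and CTSK at 0.10 ± 0.34. The most abundant protease of the list, CTSZ, was at 157 FPKM with 1-SO and UV-A and 192 with 1-SO in the dark, against 183 and 210 in vehicle UV-A and vehicle dark cells, and it passed no test.

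**Figure D4:**
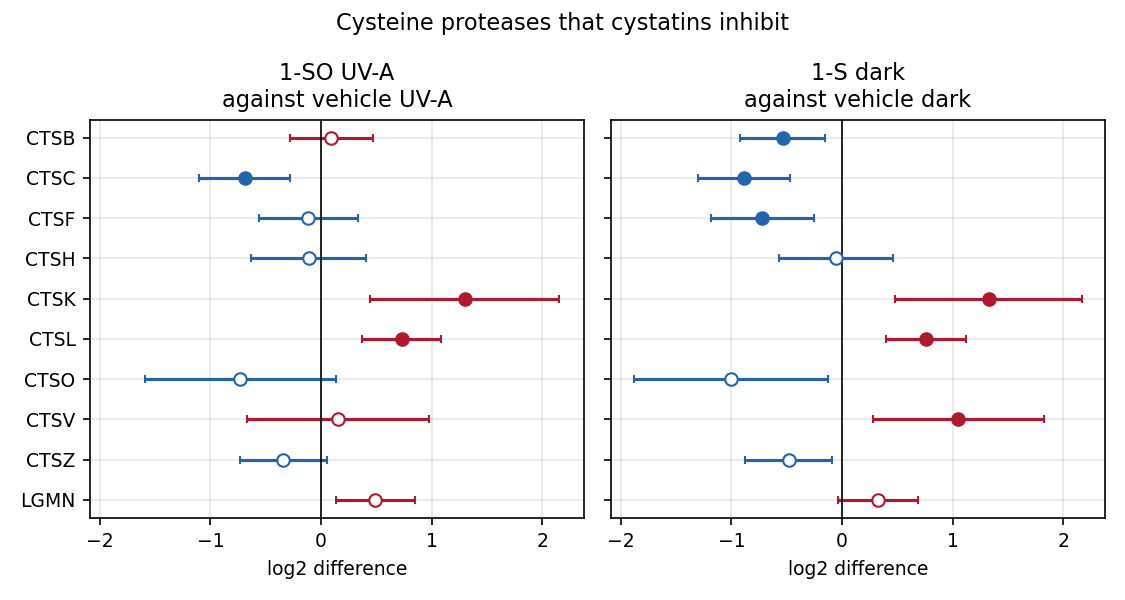
Log2 differences with 95% intervals (x axis) of the 10 tested cysteine proteases for 1-SO with UV-A (left) and 1-S in the dark (right), each against vehicle under the same light; red is above 0, blue is below 0, and filled points passed the edgeR test. CTSK and CTSL are above 0 and CTSC below 0 in both panels.

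Inhibitors of other protease classes were read beside the cystatins. Of 19 on the list 15 were tested, and with 1-S in the dark 6 passed as lower and 1 as higher (median log2 fold change -0.32), where 15.0% of all genes tested passed as lower and 15.9% as higher. TIMP3, an inhibitor of metalloproteinases that binds to the matrix, was at 38.4 FPKM with 1-S in the dark, against 139 in vehicle dark cells, and fell by 2.03 ± 0.23 (edgeR adjusted p = 1.3e-07). TIMP2 fell by 1.03 ± 0.22 and TIMP1 by 0.64 ± 0.18, and SERPINB1, the calpain inhibitor gene CAST and SPINT2 were lower by the test too. SERPINE2, an inhibitor of serine proteases such as thrombin, rose by 1.77 ± 0.18 (edgeR adjusted p = 2.7e-08). With 1-SO and UV-A 1 of the 15 passed as lower, TIMP3 at -1.70 ± 0.22 (edgeR adjusted p = 1.1e-05), and 1 as higher, SERPINE2 at 0.97 ± 0.18 (edgeR adjusted p = 0.00056). Over all genes tested, 7.05% passed as lower and 4.47% as higher in that comparison, so these counts do not stand out from the background. Of 6 lysosomal aspartic and serine proteases, which cystatins do not inhibit, 3 were tested, and with 1-S in the dark 1 passed, TPP1 (tripeptidyl peptidase), at 0.71 ± 0.18 (edgeR adjusted p = 0.00443). With 1-SO and UV-A none of the 3 passed edgeR.

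Among 1759 genes with a wide enough range, those whose log2(FPKM + 1), centred within each round, followed CST1 most closely over the 8 libraries were CST4 (Pearson's r = 0.995), ZG16B (0.986), CSF1 (0.977), TMEM163 (0.976) and GALNT18 (0.976). Those most like CST2 were LTBP1 (r = 0.957), CSF1 (0.943), TMEM163 (0.937), S100A6 (0.932) and RP11-248J18.3 (0.932). Both lists hold CSF1, a secreted growth factor of macrophages, which was at 26.6 FPKM with 1-SO and UV-A, 44.3 with 1-SO in the dark, 31.2 in vehicle UV-A and 41.9 in vehicle dark cells. ZG16B, a secreted protein also known from saliva, was at 4.82, 9.41, 6.55 and 8.52 FPKM in the same libraries. All points of these correlations share their libraries, and reads that match both CST1 and CST4 enter the first of them, so they are given as a description. CST3 correlated with CST1 at 0.990 but was not eligible, since its centred values spanned less than 1, and CSTB correlated at -0.587.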

How the data were processed

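Poly-A RNA of 8 libraries was analysed. Per the file headers, the deposited tables hold read counts per gene, not normalized, and FPKM values, which the authors made from counts, gene length and library total. The authors' deposited comparison tables hold a log2 fold change and p-values for pairs of libraries. The submitters' processing notes name STAR 2.5, TopHat, STAR-Fusion, HTSeq 0.6.1, edgeR 3.16.5, DESeq2, hg19 and hg38, with no role or order, and no source used here says if counting was strand-aware. Coordinates of the round 2 tables (GRCh38) are printed. Of the round 2 identifiers, 95.3% have the same start and end in GENCODE 29.

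Counts of the 45341 shared identifiers were tested with edgeR 4.0.16 (R 4.3.3, quasi-likelihood test, TMM within each round) for genes with FPKM of at least 1 in at least 2 libraries. One model had terms for round, for light in vehicle and for all 4 compound conditions (residual degrees of freedom 1, prior 26). A second model of 4 matched pairs, blocked by pair, gave the mean light response (residual degrees of freedom 3). P-values are two-sided and Benjamini-Hochberg adjusted over 12696 genes, called at 0.05. The labels give each library its round, and the round differences of vehicle dark and vehicle UV-A correlated at 0.860 across genes, so round is kept as a block. Members, lists and comparisons were chosen with earlier results of these data known. All 7 members, every listed gene that passed a test or was abundant, and the 5 genes most correlated with CST1 and with CST2 are named, and the neighbours of the cluster were named after their values were seen. DESeq2 1.42.0 and limma 3.58.1 (log2(FPKM + 1)), other scaling, no filter, each round's own vehicle, no round term and libraries left out were tried. The script was tested on simulated data. Identities between cystatin genes were computed from GENCODE 29 transcripts, whose sequences are not reported here.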

Additional observations from a re-analysis of the deposited data

Results flagged for a closer look

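The changes from vehicle differed between 1-SO and 1-S in the dark for CST1, by 2.07 on the log2 scale (1-SO minus 1-S), for CST4 by 1.95, for CST2 by 1.51 and for CST3 by 0.78, each by an edgeR test of the difference itself. The light response of CST4 in 1-SO cells differed from that in vehicle cells by -1.07, again by a test of the difference. Each compound had 1 library per light, and compound cannot be told apart from round and passage. No group had enough libraries for a check of single libraries that stand apart.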

How the results depend on the processing

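The differences of members given in the report, and the pseudocount check, were recomputed under other settings. Of 382 such values, 347 kept their direction and side of the threshold (or, with no test, moved by less than 1 SE), 25 lost a call, 1 gained one and 9 changed sign. None that changed sign had been called. Outside this tally, leaving out vehicle libraries turned, among others, CSTB (-0.25 to 0.21) and CST6 (-0.13 to 0.36) for UV-A in vehicle cells and both for 1-SO in the dark (-0.10 to 0.36 and -0.28 to 0.21), none of them called. Without the round term (no replicate block), every call of a member was lost, to 0 members in each comparison, and the genes called fell to 19 for 1-S in the dark, 15 for 1-S with UV-A and 0 for 1-SO with UV-A, UV-A in 1-SO cells, its interaction and both differences between compounds. That fit also gave CST2 log2 differences of 0.37 (1-SO dark) and 0.20 (1-SO UV-A), and CSTB one of -0.25 (1-S dark). DESeq2 called 472 genes for 1-SO with UV-A, 1579 for 1-S in the dark, 1478 for 1-S with UV-A, 589 for UV-A in 1-SO cells, 147 for its interaction, and 639 (dark) and 136 (UV-A) between the compounds, against 1462, 3926, 3488, 1877, 555, 2181 and 451 with edgeR. With DESeq2 1 member passed for 1-SO with UV-A, 0 for the interaction and 2 between the compounds in the dark. With each round's own vehicle the interaction with 1-SO had 212 genes and 0 members, and the compounds in the dark 1111 genes and 2 members. Without the filter on low values edgeR called 23 genes for UV-A in vehicle cells, 279 genes and 1 member for the 4 pairs, and 3 genes each for UV-A in 1-S cells and its interaction, and CSTB stood at -0.041 with 1-S in the dark. limma called 7 genes for UV-A in vehicle cells, 2 for 1-SO in the dark, 6 for the interaction with 1-S, and 1 member for UV-A in 1-SO cells. It put the median of all genes for UV-A in 1-SO cells at 0.11, against 0.00, and split calls into 1092 higher and 795 lower, against 708 and 1169, and for 1-SO with UV-A into 777 and 597, against 567 and 895. Leaving out single vehicle libraries gave values without a test: -0.058 to 0.057 for CST2 with 1-SO in the dark, -0.32 to 0.14 and -0.30 to 0.16 for CSTB with 1-SO and UV-A and with 1-S in the dark, and -0.087 to 0.14 for CST3 between compounds under UV-A. A pseudocount of 0.1 in place of 1 moved no member's log2 difference by more than its SE. By Spearman correlation all 5 genes listed for CST1 tied at 1 and all 5 for CST2 at 0.929, so ties decide which genes are listed and the lists were not compared. The cause of these changes was not tested. Depth limits CST2 and CST6, which had 31 to 217 reads a library.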
